A study of Mus musculus with 36 samples.

Results

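The Frizzled receptor genes Fzd1 to Fzd10 were followed through ChIP-seq islands of 3 histone marks. The members were chosen by name, all 10 were found in the annotation, and they are 10 of the 21938 protein-coding genes measured. ChIP-seq was performed for H2AK119ub1, H3K27me3 and H3K36me2 on the hippocampus at P0 and on neurospheres, floating cultures of neural progenitors raised from P0 hippocampi in medium with FGF2 and EGF. Ctrl libraries came from mice labelled Kdm2bfl/+ or Kdm2bfl/fl and cKO libraries from Kdm2bEmx1-delta-CxxC mice, in which Emx1-Cre removed exon 13 of Kdm2b, coding for the CxxC zinc finger. Each mark, source and genotype had 2 libraries, so 24 island files were used, and the Ctrl label therefore mixes floxed genotypes. Emx1-Cre is active in the dorsal forebrain lineage, so other cells of the dissected tissue keep the domain. Nothing in the labels says whether the 2 libraries of a group came from separate animals, so the p-values measure only the spread between these libraries.

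Frizzled proteins are seven-pass membrane receptors whose extracellular cysteine-rich domain binds Wnt ligands. With the co-receptors Lrp5 and Lrp6 they pass the signal to Dishevelled and on to beta-catenin, and some of them also act in planar cell polarity without beta-catenin. By sequence the family is commonly divided into Fzd1, Fzd2 and Fzd7; Fzd5 and Fzd8; Fzd3 and Fzd6; and Fzd4, Fzd9 and Fzd10. Wnt signals from the cortical hem pattern the hippocampus. H3K27me3 is placed by PRC2 and H2AK119ub1 by PRC1, both Polycomb complexes that keep genes silent, whereas H3K36me2 is a substrate of the demethylase in the long form of KDM2B. The CxxC zinc finger of KDM2B binds unmethylated CpG-rich DNA, which raises the question of whether the marks at CpG-rich receptor promoters differ once it is gone.

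All 10 Frizzled promoters were CpG-rich, meaning GC above 50% and CpG at more than 0.6 of the number its base content predicts, both in the 1 kb around the start. The median was 95 CpG in this 1 kb, against 72 over the 9733 CpG-rich promoters and 41 over all 21938. Fzd3 had the most, 127, and Fzd8 the fewest, 50. Fzd1, Fzd2, Fzd7, Fzd8, Fzd9 and Fzd10 are single-exon genes of 2.29 to 5.97 kb, Fzd4 and Fzd5 have 2 exons, and Fzd3 and Fzd6 have 7 exons over 70 and 32.2 kb. The start of Fzd4 lies 133 bp from that of Tmem135 on the opposite strand, so their promoter windows overlap almost wholly. The nearest other protein-coding start was at least 24.9 kb away for every member except Fzd3 and Fzd4.

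Upstream sequences are shown for Fzd5 and Fzd10, whose promoters carried H3K27me3 in the hippocampus, and for Fzd1, which carried none in any library. Each line holds the 250 bases before the RefSeq start (Fzd5 and Fzd1) or the GENCODE start (Fzd10), 5′ to 3′ on the strand of the gene, from RefSeq sequence of build GRCm38.p6 (the same coordinates as mm10). Capitals mark the motif CG, which reads the same on both strands. The windows are chr1:64737751-64738000 on the minus strand for Fzd5, chr5:128600594-128600843 on the plus strand for Fzd10 and chr5:4758217-4758466 on the minus strand for Fzd1.
Fzd5: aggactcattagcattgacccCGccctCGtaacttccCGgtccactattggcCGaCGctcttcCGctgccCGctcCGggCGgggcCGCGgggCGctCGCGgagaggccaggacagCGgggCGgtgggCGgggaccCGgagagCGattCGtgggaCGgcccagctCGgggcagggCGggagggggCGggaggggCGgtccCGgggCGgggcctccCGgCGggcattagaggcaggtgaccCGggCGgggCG
Fzd10: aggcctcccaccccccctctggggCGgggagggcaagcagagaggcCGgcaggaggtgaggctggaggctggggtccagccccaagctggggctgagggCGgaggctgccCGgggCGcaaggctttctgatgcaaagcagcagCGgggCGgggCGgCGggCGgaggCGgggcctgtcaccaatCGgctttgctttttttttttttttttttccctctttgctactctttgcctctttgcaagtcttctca
Fzd1: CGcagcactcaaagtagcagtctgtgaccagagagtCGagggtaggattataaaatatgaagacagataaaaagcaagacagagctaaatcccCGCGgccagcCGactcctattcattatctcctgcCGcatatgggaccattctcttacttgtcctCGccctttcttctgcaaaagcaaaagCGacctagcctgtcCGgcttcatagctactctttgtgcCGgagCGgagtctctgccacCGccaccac
At least 1 CG stood in 91.7% of the 27025 RefSeq promoters, with a median of 6 in the 250 bases before the RefSeq start. Fzd5 held 32, a number reached by 4.39% of those promoters, while Fzd10 and Fzd1 each held 12, reached by 33.8%. Fzd10 with H3K27me3 and Fzd1 without it thus held the same number in these windows. The Fzd10 window is placed unlike the others, as its RefSeq start lies 262 bp downstream of the GENCODE start. RefSeq promoter sequence was matched for Fzd1, Fzd4, Fzd5, Fzd7, Fzd9 and Fzd10 and not for Fzd2, Fzd3, Fzd6 and Fzd8. In the 250 bases before their RefSeq starts Fzd9 held 42 CG, more than Fzd5, and Fzd4 and Fzd7 held 25 and 17.

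The libraries differed widely in what was called. Covered length ran from 37.3 to 497 Mb and counts in islands from 987329 to 22021439. For hippocampal H2AK119ub1 the replicate 1 libraries covered 45.7 Mb (Ctrl) and 37.3 Mb (cKO) and the replicate 2 libraries 157 and 247 Mb. Neurosphere libraries covered more than hippocampal ones of the same mark for H3K27me3 (268 to 321 against 54.9 to 160 Mb) and for H3K36me2 (349 to 497 against 115 to 161 Mb). As a check of the marks, H3K27me3 was present at all 39 Hox gene promoters in each of the 8 libraries and at 6 of 7 non-neural regulators (all but Gata1), whereas no Hox promoter had an H3K36me2 island. Among forebrain progenitor genes, Sox2 and Vim had no H3K27me3 island in either source, and Emx2 had one in the hippocampus but not in neurospheres. Of 5 neuronal genes, Dcx, Stmn2 and Neurod6 had H3K27me3 in some library of both sources.

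Promoter coverage, the share of the 4 kb centred on the start (TSS ± 2 kb) that lay inside islands, is used below. It depends on where islands were called, and 0% means that no island was called, not that no read was there.

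**Figure D1:**
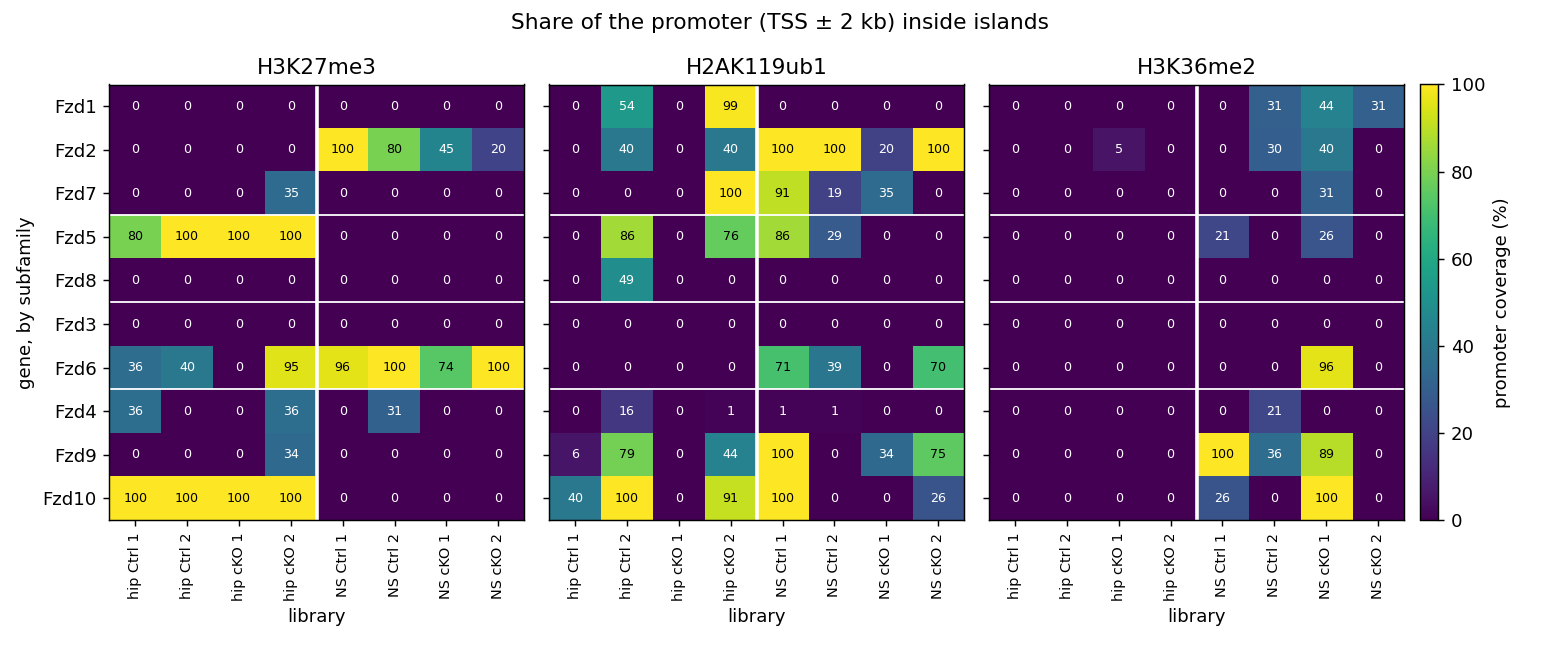
Promoter coverage in percent (colour and printed number) of the 10 Frizzled genes in each library, with 1 panel per mark. Columns are hippocampal (hip) and neurosphere (NS) libraries by genotype and replicate, and horizontal lines divide the subfamilies; Fzd5 and Fzd10 carried H3K27me3 in the 4 hippocampal libraries only, and Fzd2 in the 4 neurosphere libraries only.

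H3K27me3 divided the family by source. Fzd5 and Fzd10 were covered in the hippocampus and bare in neurospheres, Fzd2 was bare in the hippocampus and covered in neurospheres, and Fzd6 was covered in 3 hippocampal and 4 neurosphere libraries. Fzd1, Fzd3 and Fzd8 had no H3K27me3 island at the promoter in any of the 8 libraries. Fzd4, Fzd7 and Fzd9 had one in at most 3 of 8. Fzd4 was at 36.2% and 0% in Ctrl against 0% and 36.2% in cKO hippocampus, and at 31.2% in neurosphere Ctrl replicate 2 alone.

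Fzd10, a receptor gene of the dorsal neural tube, lies at chr5:128600844-128604093. Its promoter and its whole gene were 100% covered by H3K27me3 in both Ctrl and both cKO hippocampal libraries, and 0% in the 4 neurosphere libraries. The island over the start was 43.6 and 17.8 kb wide in the Ctrl libraries against 8.2 and 18.4 kb in cKO, and within 20 kb on each side 59.9% to 92.5% of the sequence was covered. In neurospheres the same 40 kb was covered by at most 0.893%.

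Fzd5 (chr1:64730558-64737751), a receptor needed in eye and gut development, followed the same pattern. In the hippocampus 80% and 100% of the promoter was covered in Ctrl, and 100% in both cKO libraries, with 0% in every neurosphere library. The widest promoter island measured 7.6 and 12 kb in the Ctrl libraries against 16.6 and 13 kb in cKO, and in all 4 it ran past the 3′ end of the gene, to between 7.95 and 10.6 kb downstream of the start. In Ctrl replicate 1 it began 0.551 kb after the start and a separate 3.6 kb island lay upstream. A smaller island of 3.2 and 3.8 kb stood 8.45 to 12.4 kb upstream in neurosphere Ctrl replicate 1 and cKO replicate 1.

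Fzd2 (chr11:102604396-102608058), a receptor for both beta-catenin and polarity signals, showed the reverse order. No hippocampal library had an H3K27me3 island at its promoter. In neurospheres it was covered over 100% and 80% in Ctrl, against 45% and 20.1% in cKO, and islands of 30.2 to 38.2 kb belonged to a domain that covered 90.5% to 98.0% of the 40 kb around the start.

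For these 3 genes the 4 hippocampal and 4 neurosphere libraries did not overlap (exact two-sided permutation test of 4 against 4 libraries, p = 0.0286, the smallest this design allows). Adjusted over all 21938 promoters the exact permutation p was 0.403. Among all promoters 1.25% were lower in neurospheres without overlap, as Fzd5 and Fzd10 were, and 5.85% were higher, as Fzd2 was. When every library was cut to the same covered length, keeping the islands densest in reads, Fzd5 and Fzd10 still differed by 95 and 100 percentage points, whereas the Fzd2 difference dropped from 61.3 to 5.03 points and its libraries overlapped. With 1 kb on each side of the start Fzd5 and Fzd10 were again separated and Fzd2 was not. Hippocampal tissue holds many cell types and neurospheres are cultured progenitors, so source, cell composition and culture cannot be told apart.

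Fzd6 (chr15:39006034-39038188), which acts in planar polarity, carried H3K27me3 in both sources. Hippocampal coverage was 35.8% and 40% in Ctrl against 0% and 95% in cKO. Neurosphere coverage was 95.8% and 100% in Ctrl against 74.2% and 100% in cKO. The neurosphere islands sat on the start, reaching 1.83 to 4.03 kb upstream and 0.966 to 4.97 kb downstream, and were 3 to 8.2 kb wide. Between sources the ranges overlapped (exact permutation test, p = 0.0571). Fzd3, the other member of this pair and an axon guidance receptor with the highest CpG count of the family, had no island of any of the 3 marks at its promoter in any of the 24 libraries.

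**Figure D2:**
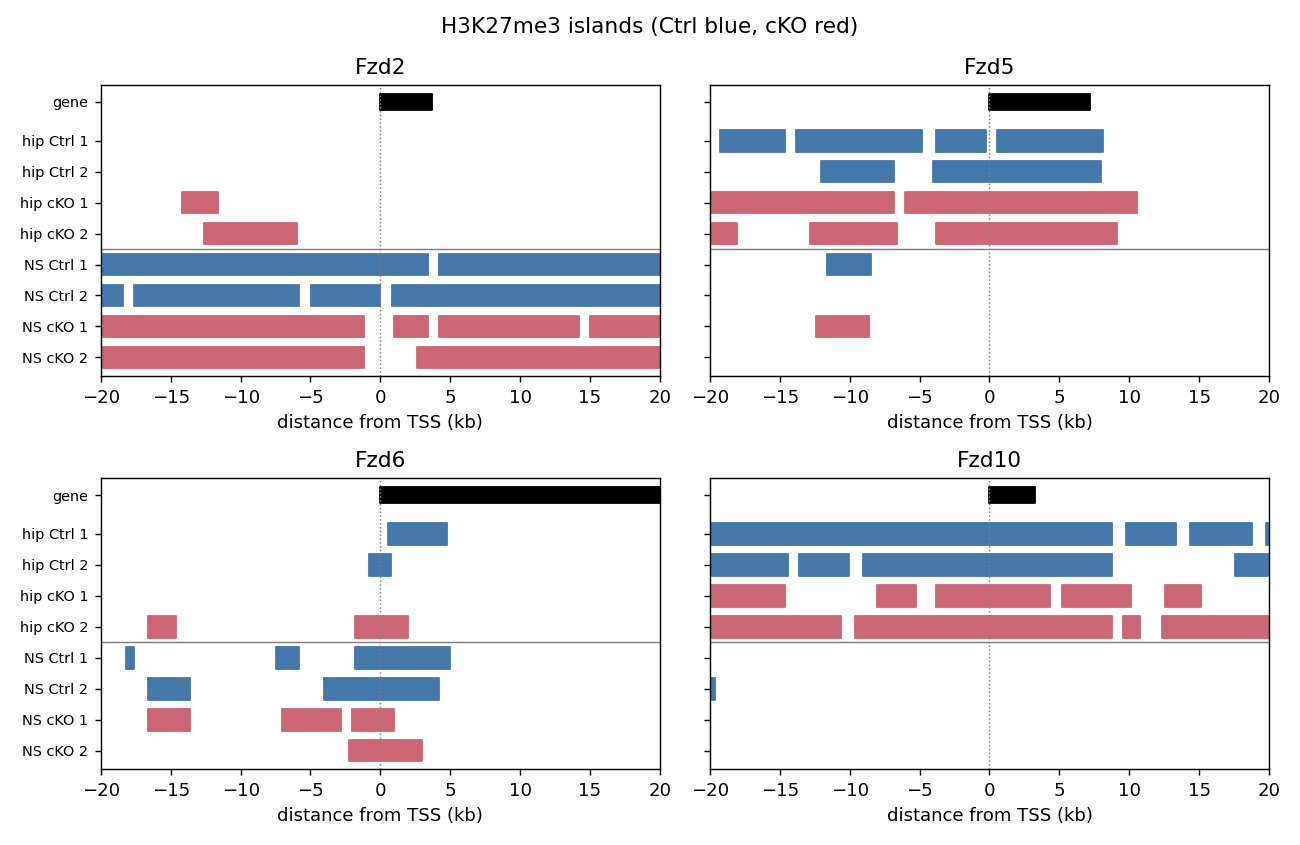
H3K27me3 islands (bars) from 20 kb upstream to 20 kb downstream of the start of Fzd2, Fzd5, Fzd6 and Fzd10, 1 row per library, with Ctrl in blue, cKO in red and the gene in black. Hippocampal rows (hip) lie above the grey line and neurosphere rows (NS) below. At the Fzd2 start the uncovered stretch measured 0 and 0.8 kb in Ctrl neurospheres, where it lay just downstream. In cKO neurospheres it measured 2.2 and 3.8 kb, and the stretch of 3.8 kb ended 2.6 kb downstream of the start, outside the promoter window.

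Between genotypes, Fzd2 was the 1 member of 10 whose neurosphere H3K27me3 coverage did not overlap, with Ctrl at 90% ± 14.1 (SD, n = 2) and cKO at 32.6% ± 17.6 (n = 2). The difference, cKO minus Ctrl, of -57.4 points had p = 0.333 in the exact permutation test, the smallest that 2 against 2 libraries allow, and 5.34% of all promoters were likewise lower without overlap. The domain around the gene was called in all 4 libraries. Islands within 60 kb of the start summed to 105 and 104 kb in Ctrl against 97.2 and 111 kb in cKO. In Ctrl replicate 1 the start lay inside a continuous island and in Ctrl replicate 2 an 0.8 kb stretch downstream of it was uncovered. In both cKO libraries the upstream island ended 1.2 kb before the start, and coverage resumed 1.0 kb after it in replicate 1 and 2.6 kb after it in replicate 2. This stretch was singled out after its values were seen. At the equal covered length used between sources, neurosphere Fzd2 coverage exceeded hippocampal coverage by only 5.03 points. The order of the genotypes was not tested at that length.

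The reads in the Fzd2 domain gave a smaller difference. The merged region of 122.8 kb, chr11:102557201-102680000, held 6723 and 5752 counts in the Ctrl libraries against 5016 and 4901 in cKO, a log2 fold change of -0.33 (SE 0.17, adjusted p = 0.349 in the edgeR quasi-likelihood test over 11262 regions). Counts per kb in the promoter islands were 66.5 and 53.5 in Ctrl and 53.6 and 49.7 in cKO. Divided by the counts per kb of all islands of the library they were 1.11 and 1.02 in Ctrl and 1.24 and 1.18 in cKO, so relative to other islands the remaining Fzd2 islands were denser in cKO by 0.19 on the log2 scale (exact permutation p = 0.333). The narrower coverage and the relative density thus pointed in opposite directions, but they describe unlike stretches. The density was taken over whole islands, which reached far beyond the promoter. In Ctrl replicate 2 the widest island ran from 0.805 to 37.2 kb downstream of the start. In cKO replicate 2 the island ran from 33.4 to 1.2 kb upstream of it.

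Fzd6 gave a similar pair of values in neurospheres. Its region of 12.4 kb held 416 and 317 counts in the Ctrl libraries against 249 and 201 in cKO. The log2 fold change was -0.68 (SE 0.34, edgeR adjusted p = 0.342). Promoter coverage of Fzd6, given above, overlapped between genotypes. Relative density was 0.874 and 0.739 in Ctrl, against 1.12 and 0.92 in cKO. edgeR called 0% of the 11262 H3K27me3 regions of neurospheres at an FDR of 0.05, with 2077 under an unadjusted p of 0.05, and DESeq2 called 734, none of them over a Frizzled promoter. Only regions called in all 4 libraries were tested, here 11262 of 68938 merged regions. A region that lacked an island in any library could not be called, here and in the other comparisons.

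In the hippocampus none of the 10 members differed in H3K27me3 coverage without overlap, against 4.42% of all promoters. The Fzd10 region of 91.2 kb held 3191 and 1727 counts in the Ctrl libraries against 2354 and 2921 in cKO (log2 fold change of -0.63, SE 0.28, edgeR adjusted p = 0.995). The unscaled counts were higher in cKO on average, and the sign is that after scaling to each library. The Fzd5 region of 38.2 kb held 1054 and 548 in the Ctrl libraries against 1614 and 1177 in cKO (log2 fold change of 0.08, SE 0.31, edgeR adjusted p = 0.995). In the 4387 hippocampal regions edgeR called 0%, with 159 under an unadjusted p of 0.05, and DESeq2 called 3. Fzd7 and Fzd9 had H3K27me3 only in hippocampal cKO replicate 2, at 35% and 34.3%, the hippocampal library of this mark with the longest covered length.

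H2AK119ub1 at the Frizzled promoters varied widely between libraries of one group. In the hippocampus 7 of 10 members had an island in Ctrl replicate 2 and 7 in cKO replicate 2, against 2 and 0 in the replicate 1 libraries. Among all promoters the shares were 17.1% and 24.3% in replicate 2 and 6.08% and 3.94% in replicate 1, the same order.

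Fzd10 and Fzd9 were the members most often marked there, each in 3 of 4 libraries. Fzd10 had 40% and 100% in Ctrl against 0% and 91.1% in cKO hippocampus. Fzd5 had 0% and 86.2% in Ctrl against 0% and 76.2% in cKO. Fzd9, a receptor gene prominent in the hippocampus, had 5.72% and 79.3% in Ctrl against 0% and 44.3% in cKO. Fzd1, a close relative of Fzd2 and Fzd7 and without any H3K27me3, had 0% and 54.2% in Ctrl against 0% and 99.2% in cKO. Fzd7, a receptor found on many stem cells, reached 100% in cKO replicate 2 alone, and Fzd8, which is active in the ventricular zone, 49.0% in Ctrl replicate 2 alone, its only promoter island of any mark. Fzd2 had 0% and 39.9% in each genotype, and Fzd4 0% and 16.2% in Ctrl against 0% and 1.15% in cKO. In each case the values of the genotypes overlapped. None of the 10 members differed without overlap, against 1.06% of all promoters. The 1 Frizzled region called in all 4 libraries, 19.2 kb at Fzd10, held 107 and 595 counts in the Ctrl libraries against 104 and 565 in cKO (log2 fold change of -0.21, SE 0.62, edgeR adjusted p = 0.999), and edgeR called 0% of 2750 regions, with 30 under an unadjusted p of 0.05 and none by DESeq2.

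In neurospheres Fzd5 was the member whose H2AK119ub1 separated most, with 86.2% and 28.8% in Ctrl and no island in either cKO library, a difference of 57.5 points (exact permutation p = 0.333). Its Ctrl islands lay apart: in replicate 1 a 9.6 kb island covered the start and the gene, and in replicate 2 a 2.4 kb island ended 0.85 kb upstream of the start. Fzd4, the Norrin receptor of retinal vessels, also had no overlap, but at 1.15% and 1.15% in Ctrl, the edge of an island 1.96 kb upstream, against 0% in cKO. These were 2 of 10 members, both lower in cKO, against 3.75% of all promoters.

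Fzd2 carried the most H2AK119ub1 in neurospheres, with 99.9% and 100% in Ctrl against 19.9% and 100% in cKO. Its region of 40.6 kb held 2338 and 603 counts in the Ctrl libraries against 900 and 1509 in cKO (log2 fold change of 0.32, SE 0.55, edgeR adjusted p = 1.00), where again the unscaled counts lay the other way on average. Fzd7, at 90.6% and 19.4% in Ctrl against 35% and 0% in cKO, had a region of 16.4 kb with 787 and 384 against 309 and 123 counts (log2 fold change of -0.75, SE 0.78, edgeR adjusted p = 1.00). Fzd6 had 70.8% and 39.2% in Ctrl against 0% and 70% in cKO. Fzd9 had 100% and 0% in Ctrl against 34.3% and 75% in cKO, and Fzd10 100% and 0% against 0% and 26.1%. Fzd1, Fzd3 and Fzd8 had none. Here edgeR called 0% of 6060 regions, with 101 under an unadjusted p of 0.05 and 32 by DESeq2. Between sources none of the 10 members differed without overlap in H2AK119ub1, against 1.78% of all promoters.

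**Figure D3:**
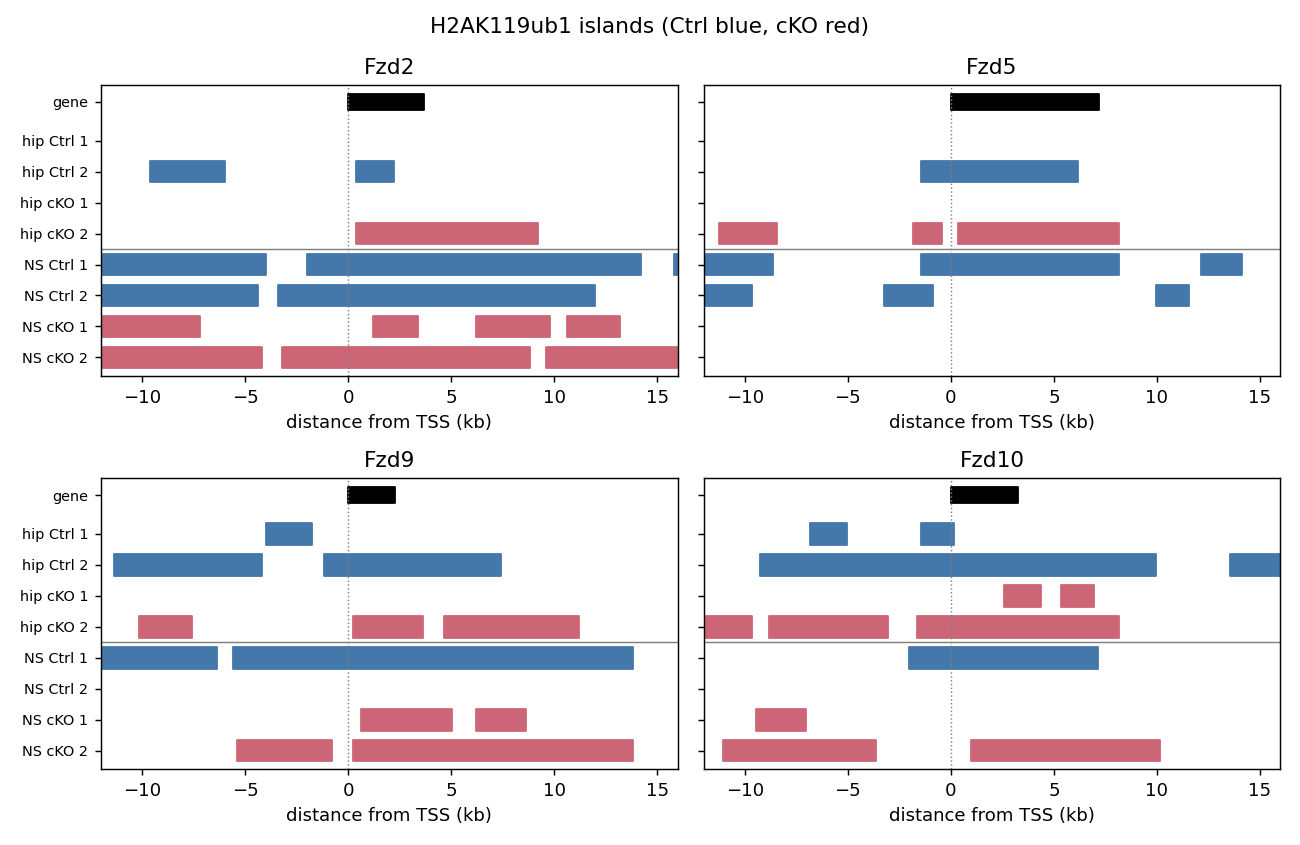
H2AK119ub1 islands (bars) from 12 kb upstream to 16 kb downstream of the start of Fzd2, Fzd5, Fzd9 and Fzd10, 1 row per hippocampal (hip) or neurosphere (NS) library, with Ctrl in blue, cKO in red and the gene in black. The hippocampal replicate 1 rows are nearly empty, and at Fzd5 both neurosphere cKO rows are empty.

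The Polycomb marks were then read side by side in libraries of the same source, genotype and replicate number. Over the 4 hippocampal replicates, H3K27me3 and H2AK119ub1 met at a Frizzled promoter 8 times, at Fzd10 in 3 replicates, Fzd5 in 2 and Fzd4, Fzd7 and Fzd9 in 1 each. Members with H3K27me3 numbered 4 and 3 in Ctrl against 2 and 6 in cKO. The marks met at 1 and 2 of these in Ctrl against 0 and 5 in cKO. Among all promoters with H3K27me3 in the hippocampus, 17.2% to 66.5% per replicate also had H2AK119ub1. In neurospheres they also met 8 times, at Fzd2 in 4 replicates, Fzd6 in 3 and Fzd4 in 1, and the share over all promoters with H3K27me3 was 34.6% to 64.9%. Members with H3K27me3 numbered 2 and 3 in Ctrl against 2 and 2 in cKO neurospheres. The marks met at 2 and 3 of these in Ctrl against 1 and 2 in cKO. In neurosphere Ctrl replicate 1 Fzd5 and Fzd10 carried H2AK119ub1 (86.2% and 100%) and no H3K27me3. The neurosphere Ctrl replicates held H2AK119ub1 without H3K27me3 at 5 members (Fzd4, Fzd5, Fzd7, Fzd9 and Fzd10) in replicate 1 and at 2 (Fzd5 and Fzd7) in replicate 2, and H3K27me3 without H2AK119ub1 at 0 members in either. Fzd4 is counted there on a coverage of 1.15%. Of all promoters with H2AK119ub1, 49.99% in replicate 1 and 66.19% in replicate 2 also had H3K27me3. H2AK119ub1 alone was thus common over all promoters too. In cKO replicate 1 Fzd6 had H3K27me3 alone. With at least 50% of the promoter covered as the call, the marks met 4 times in each source, and Fzd6 in neurosphere Ctrl replicate 2 then had H3K27me3 alone.

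In the hippocampus the only H3K36me2 island at a Frizzled promoter, at Fzd2 in cKO replicate 1, covered 5.12%. Islands were scarce over all promoters too, at 3.77% to 6.18% of them per library, and 0 or 1 of 10 members is near that share. In neurospheres it was found at 3 and 4 promoters in Ctrl and at 7 and 1 in cKO. The cKO libraries stood on either side of the Ctrl libraries, and so did all promoters, of which 20.0% and 18.7% had an island in Ctrl and 42.2% and 11.3% in cKO. Fzd9 was at 100% and 35.7% in Ctrl against 89.3% and 0% in cKO, and its region of 41.2 kb held 2441 and 1782 against 1880 and 264 counts (log2 fold change of -0.71, SE 0.86, edgeR adjusted p = 0.969). Fzd10 was at 26.1% and 0% in Ctrl against 100% and 0% in cKO, and its region of 35.4 kb held 1283 and 1155 against 1673 and 588 counts (log2 fold change of 0.21, SE 0.53, edgeR adjusted p = 0.971), also opposite to the unscaled mean counts. Fzd1 was at 0% and 30.9% in Ctrl against 44.2% and 30.9% in cKO. Fzd2 was at 0% and 29.9% in Ctrl against 39.9% and 0% in cKO, and Fzd5 at 21.2% and 0% against 26.2% and 0%. Fzd4 had an island in Ctrl replicate 2 alone (21.2%), and Fzd6 and Fzd7 in cKO replicate 1 alone, at 95.8% and 30.6%. All of these ranges overlapped between genotypes.

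None of the 10 members differed in H3K36me2 without overlap between genotypes, against 1.47% of all promoters in the hippocampus and 4.84% in neurospheres, or between sources, against 3.22%. No Frizzled region was called in all 4 hippocampal libraries. edgeR called 0% of 6447 hippocampal and 0% of 34454 neurosphere regions, with 319 and 746 under an unadjusted p of 0.05, and DESeq2 called 17 and 83.

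The 2 long genes held H3K36me2 islands inside the gene, and both also had islands upstream of it. Neither start lay in one, except that of Fzd6 in neurosphere cKO replicate 1. Fzd6 was covered over 11.8% and 8.09% of its length in Ctrl and 24.9% and 22.4% in cKO hippocampus, and over 56.6% and 72.1% in Ctrl against 70.1% and 58.4% in cKO neurospheres. It was the 1 Frizzled gene with H3K36me2 in every library, and the neurosphere values lay above the hippocampal ones. In the hippocampus the cKO values also lay above those of Ctrl. Fzd3 was covered over 2.57% and 4.0% in Ctrl and 0% in cKO hippocampus, and over 3.43% and 0% in Ctrl against 12.9% and 26.9% in cKO neurospheres, so the order of the genotypes differed between the sources. These gene-length values are given as a description, without the share of all genes ordered likewise. The neurosphere H3K36me2 libraries also covered more sequence than the hippocampal ones (349 to 497 against 115 to 161 Mb).

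**Figure D4:**
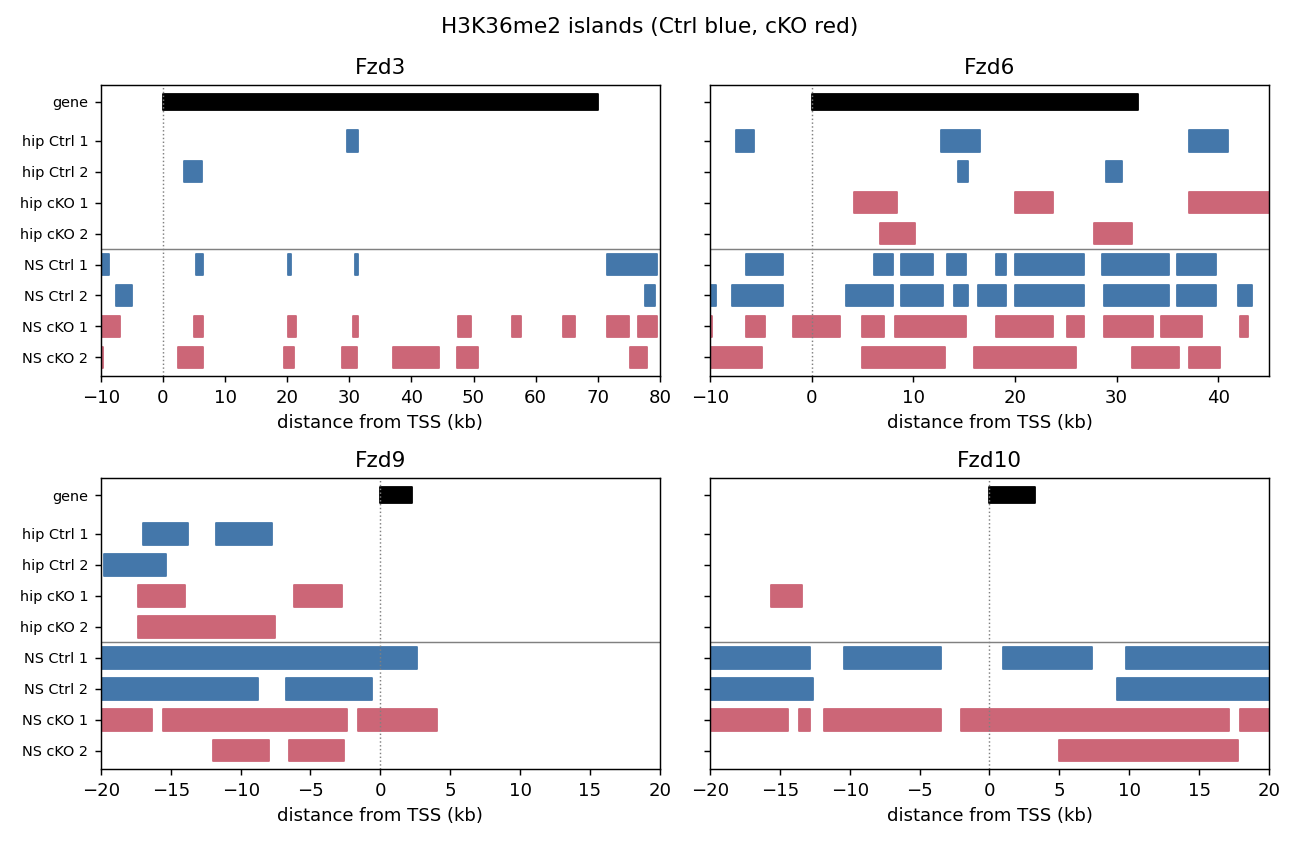
H3K36me2 islands (bars) along Fzd3, Fzd6, Fzd9 and Fzd10 by distance from the start in kb, 1 row per hippocampal (hip) or neurosphere (NS) library, with Ctrl in blue, cKO in red and the gene in black. Islands fill much of Fzd6 in neurospheres (56.6% to 72.1% of the gene) and spare its start in all but 1 library.

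Genotype was also tested over both sources together by exchanging labels within each source. No member reached the smallest p of 0.0556 that 36 arrangements allow. The lowest exact permutation p was 0.278 for Fzd5 in H2AK119ub1, 0.333 for Fzd2 in H3K27me3 and 0.667 for H3K36me2.

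Other receptor-level genes of the pathway were read the same way, from a list of 28 co-receptors, polarity genes, Dishevelleds and receptor regulators. In neurosphere H3K27me3, 4 of 28 were lower in cKO without overlap and none higher, against 5.34% and 3.43% of all promoters. Adgra2, a co-activator of Wnt7 signals, was at 100% in both Ctrl and 0% in both cKO libraries. Gpc4, a glypican, was at 100% and 100% against 0% and 46.3%. Reck, the partner of Adgra2, was at 36.8% and 46.8% against 16.8% and 0%, and the Wnt5a receptor Ror2 at 93.1% and 88.1% against 83.1% and 48.1%. In hippocampal H3K27me3 1 of 28 was lower and 2 were higher, against 0.793% and 3.62% of all promoters. There Ror2 was lower (100% and 100% against 86.9% and 51.9%), and Ror1 (34.8% and 54.8% against 100% and 100%) and Prickle2 (0% and 0% against 100% and 31.2%) were higher.

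In neurosphere H2AK119ub1, 2 of 28 were lower, against 3.75% of all promoters, namely Lgr4 (51.2% and 51.2% against 0% and 31.2%) and Vangl1 (100% and 27.7% against 0% and 7.7%). In neurosphere H3K36me2, Lrp5 was lower (100% and 100% against 80% and 0%) and Prickle2 higher (0% and 0% against 56.2% and 43.9%), 1 of 28 each, against 2.76% and 2.08% of all promoters. No gene of the list separated in hippocampal H2AK119ub1 or H3K36me2. The co-receptors Lrp5 and Lrp6 and the Dishevelleds Dvl1, Dvl2 and Dvl3 had no H3K27me3 promoter island in any of the 8 libraries, and were singled out after their values were seen. Between sources, Lgr5 and Ror1 had less H3K27me3 in neurospheres and Celsr1, Celsr2 and Celsr3 more, without overlap, which were 2 and 3 of 28 against 1.25% and 5.85% of all promoters; this comparison of the list was chosen after its values were seen.

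The genes whose promoter coverage over the 24 libraries lay closest to each member were Dbn1 for Fzd2 (mean absolute difference 7.5 points), Tmem135 for Fzd4 (1.11 points), Sox21 for Fzd5 (5.10 points), Nt5c1a for Fzd6 (8.99 points), Cyth1 for Fzd7 (4.71 points), Fmnl1 for Fzd9 (4.16 points) and Adm for Fzd10 (6.77 points). Tmem135 shares the promoter of Fzd4. Fzd1, Fzd3 and Fzd8 had islands in fewer than 6 libraries and were not compared.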

How the data were processed

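ChIP-seq islands of H2AK119ub1, H3K27me3 and H3K36me2 in P0 hippocampus and neurospheres were used, with 2 libraries for each mark, source and genotype grouped by the sample titles; the 12 input samples of 36 were not analysed here. The authors trimmed reads with cutadapt, aligned them to mm10 with Bowtie2 2.4.5, removed duplicates and called islands in each library against input with SICER (window 200 bp, gap 600 bp, FDR 0.01; its version is not given in the sources used here). The deposited values are read counts per island, not normalised, with none outside islands, so the depth of each library and intervals on an absent island are not known, and total counts in islands move with the called length. Per the methods a lysate was shared by the antibodies, but the labels give hippocampal H3K36me2 its own input samples, so only the Polycomb marks were read together by replicate number.

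Promoters were TSS ± 2 kb of 21938 protein-coding genes of GENCODE vM21. Islands of the 4 libraries of a mark and source that overlapped or touched were merged, counts were summed per library, and regions called in all 4 were tested with edgeR 4.0.16 (quasi-likelihood, TMM, Benjamini-Hochberg, FDR 0.05) in R 4.3.3, with DESeq2 1.42.0 as an alternative; SE is the log2 fold change over the square root of F. Regions without an island in every library were not tested, so 0% called says nothing of regions lost in cKO. A fold change combines called length and density. Coverage was compared by exact two-sided permutation of libraries, and a member was called separated when the values of the groups did not overlap. The edgeR test was tried on simulated counts and the interval code on simulated islands. The simulated counts had large changes and a fixed spread that was not taken from these libraries. They do not show how well smaller changes would be found here. The members and lists were chosen with earlier results of these data known. All 10 members are named, list genes are named where the genotypes did not overlap, at most 5 per comparison, and the nearest gene by coverage is named for members with islands in at least 6 libraries. Alternatives were other promoter windows, islands of at least 2 kb, equal covered length, the mean over distinct starts, the whole gene, other scalings, a mean of at least 50 counts, a replicate block and leaving out each library.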

Additional observations from a re-analysis of the deposited data

How the results depend on the processing

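With 2 libraries a group, the exact permutation test cannot go below p = 0.333, and reads outside islands are unknown. Counts below are members whose groups did not overlap. By leave-one-out and genotype, hippocampal H2AK119ub1 gave 0 to 5 (0 with all libraries), with 5 lower without Ctrl replicate 1, 2 higher without cKO replicate 1 and 2 lower without cKO replicate 2. Neurosphere H2AK119ub1 gave 3 to 6 (2 with all), with 6 without Ctrl replicate 2 and 4 without cKO replicate 2. Hippocampal H3K27me3 gave 0 to 3 (0 with all), with 3 without cKO replicate 1 and 1 without Ctrl replicate 2 or cKO replicate 2. Neurosphere H3K27me3 gave 1 to 2 (1 with all), with 2 without Ctrl replicate 1 or cKO replicate 2. Hippocampal H3K36me2 gave 0 to 1 (0 with all), with 1 without cKO replicate 2. Neurosphere H3K36me2 gave 1 to 6 (0 with all), with 6 without cKO replicate 2, 2 without Ctrl replicate 2 and 1 without either other library. Between sources, H2AK119ub1 gave 0 to 2, with 2 without neurosphere cKO replicate 1. There H3K27me3 gave 3 to 4 and H3K36me2 0 to 1, with 1 without neurosphere Ctrl replicate 1 or cKO replicate 2. In the stratified test 0 to 1 members reached the smallest p in H2AK119ub1, 1 without hippocampal Ctrl replicate 1. Over all promoters the separated share rose likewise, by genotype from 1.06% to between 3.66% and 15.6% (hippocampal H2AK119ub1), 5.88% to between 13.5% and 22.7% (neurosphere), 4.42% to between 8.76% and 17.2% (hippocampal H3K27me3), 8.77% to between 13.8% and 18.9% (neurosphere), 1.47% to between 3.65% and 5.67% (hippocampal H3K36me2) and 4.84% to at most 31.0% (neurosphere), and between sources it was 1.94% to 6.80%, 7.70% to 9.71% and 3.41% to 8.49% for H2AK119ub1, H3K27me3 and H3K36me2.

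With 5 kb on each side of the start the counts were 1 (hippocampal H2AK119ub1), 3 (neurosphere H3K27me3: Fzd2, Fzd6, Fzd7), 1 (hippocampal H3K36me2) and 3 (H3K36me2 between sources). With 1 kb on each side or islands of at least 2 kb, neurosphere H2AK119ub1 had 1, Fzd5; with 1 kb, H3K27me3 between sources had 2, without Fzd2. Over the whole gene they were 1 (Fzd6, hippocampal H2AK119ub1), 0 (neurosphere H2AK119ub1, where the Fzd4 difference became 1.51 points), 2 (Fzd2 and Fzd6, neurosphere H3K27me3), 2 (hippocampal H3K36me2), 1 (neurosphere H3K36me2) and 1 (Fzd6, H3K36me2 between sources). Equal covered length gave 1 (Fzd9, 4.57%) in neurosphere H3K36me2. Ctrl libraries alone gave 3 between sources in H2AK119ub1 and 1 in H3K36me2. At 50% coverage the Polycomb marks met 4 times in each source. Fzd2 coverage was lower in cKO neurosphere H3K27me3 in each run by genotype. The causes were not tested.

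Among Frizzled regions 0 to 1 passed an FDR of 0.05 in neurosphere H3K36me2, namely Fzd9 without cKO replicate 1 (log2 fold change -2.46, edgeR adjusted p = 0.0389), where the cKO arm is 1 library, assumed to vary like the Ctrl libraries, and whose leave-one-out values ran from -2.46 to 0.073, the latter without cKO replicate 2. Leave-one-out values also changed sign for Fzd10 in hippocampal H2AK119ub1 (-0.62 to 0.11; 0.11 without Ctrl replicate 2 and 0.071 without cKO replicate 1), for Fzd5 in hippocampal H3K27me3 (-0.14, without cKO replicate 1, to 0.28) and for Fzd10 in neurosphere H3K36me2 (-0.51, without cKO replicate 1, to 0.70). With total counts Fzd5 in hippocampal H3K27me3 was at -0.036. With the replicate block 0 Frizzled regions passed in each of the 6 comparisons; same-numbered libraries deviated with correlations of -0.32 to 0.33 over regions, so the numbers are not taken as pairs. A crossed replicate block, chosen after seeing the data for neurosphere H2AK119ub1 and H3K27me3, also gave 0 regions.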
